A study of Mus musculus with 18 samples.

Results

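Each library of the series carries 1 number for how its reads lay along gene bodies, and the libraries compared here are those at the upper and lower ends of that number. The libraries were 18 poly(A)-selected RNA-seq libraries from the left ventricle of C57BL/6J mice, 9 from WT littermates and 9 from WWP2 Mut/Mut mice (KO in the sample labels), which are homozygous for a germline frameshift mutation in Wwp2 made with CRISPR/Cas9. All 18 mice had received angiotensin II (AngII) at 500 ng/kg/min for 28 days from pumps placed at 8 weeks of age, so all libraries shared that treatment, and no saline group was used here. The high libraries were the 9 with a coverage value of at least 0.04 (4 WT and 5 WWP2 Mut/Mut), and the low libraries were the 8 with a value of at most 0.035 (4 WT and 4 WWP2 Mut/Mut). The remaining WT library, 45-3, lay between them. Each library is a separate mouse.

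Poly(A) selection captures an mRNA by its tail. Where an RNA is broken before capture, the piece that is kept is the one that ends at the tail, so reads gather towards the 3' end, and long mRNAs lose more of their sequence than short ones. Gene body coverage summarises the position of reads along transcripts and is used as a measure of library quality. The value comes from the sample sheet deposited with the counts. Its name refers to the lower part of the gene body, its exact definition is not given in the sources used here, and "high" and "low" therefore name the value only, not a better or a worse library.

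Coverage ran from 0.0408 to 0.0540 in the high libraries, with a median of 0.0456, and from 0.0288 to 0.0341 in the low libraries, with a median of 0.0317. The libraries nearest the limits were WT 45-1, just inside the high group at 0.0408, and WT 39-1, just inside the low group at 0.0341, and WT 45-3 fell outside both at 0.0383. Both groups held both genotypes and all 4 sequencing lanes, with 3, 3, 1 and 2 high libraries and 1, 2, 3 and 2 low libraries in lanes 1 to 4. Total counts were 24567000 to 37451000 in the high libraries (median 30369000) and 25417000 to 36596000 in the low libraries (median 31774000), each rounded to the nearest 1000. Wwp2, the mutated gene, had 1.19 to 3.00 TPM in WWP2 Mut/Mut libraries and 3.83 to 6.01 TPM in WT libraries, so the labels held in every library. WT 45-1 stood apart from the other high libraries in several measures below, and its effect is given beside the results that rest on it.

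**Figure D1:**
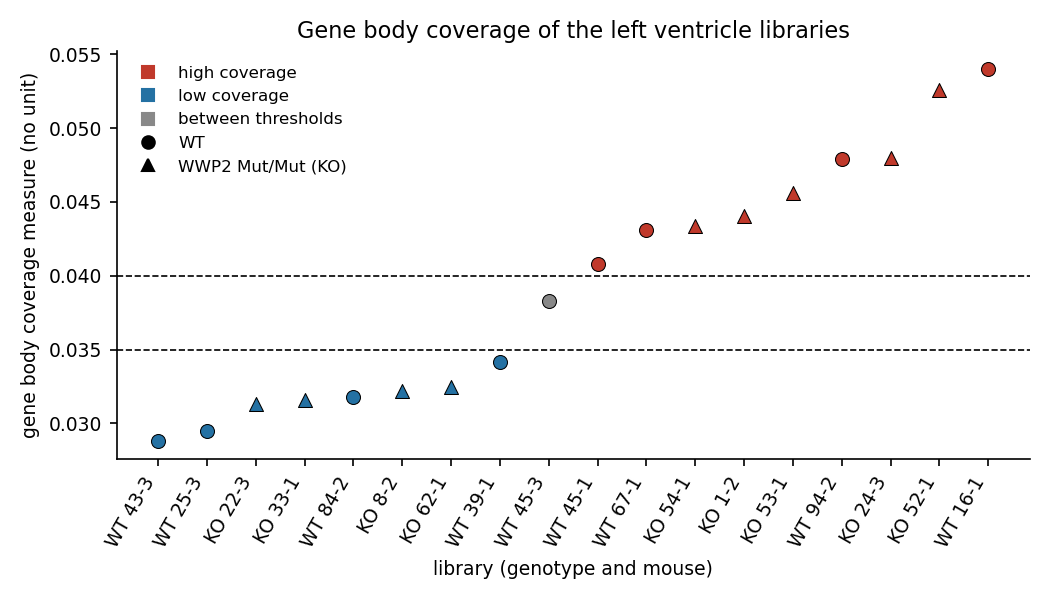
Gene body coverage (vertical axis, a fraction without unit) of each of the 18 libraries, ordered from lowest to highest, with genotype shown by marker and the limits of 0.035 and 0.04 as lines. The 8 low libraries end at 0.0341, the 9 high libraries start at 0.0408, and WT 45-3 lies between the lines at 0.0383.

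Coverage was first compared with 12 other properties of the libraries, to ask which of them moved with it (Pearson's r and Spearman's rho over 18 libraries, 100000 permutations, p values adjusted over the 12 by the method of Benjamini and Hochberg). The share of counts held by the 10 most abundant genes rose with coverage (r = 0.93, rho = 0.92, adjusted permutation p = 4e-05 for each, from the smallest p that the permutations can give). It was 29.8 ± 2.65% (SD, n = 9) in high and 23.6 ± 1.62% (SD, n = 8) in low libraries (two-sided exact permutation test, p = 0.000247, adjusted p = 0.000987). Since the high and low libraries form separate clusters of coverage, r was also taken within each, and it was 0.78 in the high (exact permutation p = 0.0110) and 0.85 in the low libraries (exact permutation p = 0.00580).

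The effective length of the average transcript molecule, weighted by TPM, fell as coverage rose (r = -0.92, rho = -0.94, adjusted permutation p = 4e-05 for each). It was 831 ± 68.1 bases in high and 1008 ± 51.5 bases in low libraries (exact permutation test, p = 0.000206, adjusted p = 0.000987). Within the high libraries r was -0.75 (exact permutation p = 0.00693) and within the low libraries it was -0.77 (exact permutation p = 0.0234). WT 45-1, at 998 bases, was the only high library within the range of the low ones, which started at 933 bases. The same relation held in WT libraries alone (r = -0.91) and in WWP2 Mut/Mut libraries alone (r = -0.94).

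The deposited TPM of a library summed to less than the nominal total of a TPM table. The authors had removed mitochondrial and rRNA genes from the tables. The shortfall was 20.5 ± 2.65% in high and 26.8 ± 3.30% in low libraries (exact permutation test, p = 0.000658, adjusted p = 0.00197). Over 18 libraries it fell with coverage (r = -0.73, rho = -0.73, adjusted permutation p = 0.00170 and 0.00214), but not within the high (r = -0.53, exact permutation p = 0.147) or the low libraries (r = 0.07, exact permutation p = 0.862), nor past the threshold in WT libraries alone (r = -0.65, exact permutation p = 0.0588), and it fell in WWP2 Mut/Mut libraries alone (r = -0.87, exact permutation p = 0.00340), a difference between genotypes that was not tested. For each measure, r was also taken without the 2 libraries farthest from that measure's own median. It was 0.92 for the share of the 10 most abundant genes, -0.90 for effective length and -0.74 for the shortfall.

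Quality values recorded for the RNA did not move with coverage past the threshold. Pearson's r was -0.11 for RNA concentration (rho = -0.10, permutation p = 0.672 and 0.691), 0.03 for the A260/280 ratio over 17 libraries (rho = -0.11, permutation p = 0.907 and 0.671) and -0.08 for A260/230 (rho = -0.08, permutation p = 0.764 and 0.761). Total count had r = -0.21 (rho = -0.16, permutation p = 0.387 and 0.531). The fragment length that the files' effective lengths imply was 185.2 bases in high and 184.1 bases in low libraries on average (r = 0.19, rho = 0.23, permutation p = 0.437 and 0.359). The number of genes with a count was 20149 ± 267 in high and 19722 ± 250 in low libraries (exact permutation test, p = 0.00424, adjusted p = 0.00847), while its correlation over 18 libraries missed the threshold after adjustment (r = 0.49, rho = 0.44, adjusted permutation p = 0.0818 and 0.144).

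At the level of single genes, 7244 of 24681 genes tested differed between high and low libraries with genotype in the model (edgeR quasi-likelihood test, Benjamini-Hochberg adjusted p below 0.05), which is 29.4%. Of these, 3666 were higher in the high libraries (14.9% of genes tested) and 3578 were lower (14.5%). Among the 11328 genes with a mean of at least 1 TPM, 2588 were higher (22.8%) and 2980 lower (26.3%), 49.2% together, and the median difference over these genes was 0.00 on the log2 scale. The groups did not overlap at all for 862 genes lower in every high library (7.61%) and 229 genes higher in every high library (2.02%). With lane added to the model 3175 genes were higher and 3383 lower.

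All fold changes below are log2 differences of counts, high minus low, scaled by trimmed mean of M values (TMM), whereas levels are in TPM, which takes transcript length into account. The choice of scale sets where 0 lies. With library size only, the median difference of genes of at least 1 TPM was -0.13, and on the log2(TPM + 1) scale it was -0.22, so on those scales most genes sit below 0 and 31.6% and 17.4% of calls were higher, in place of 50.6%.

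Coverage taken as a number over all 18 libraries gave the same picture. Per 0.01 of coverage, 4412 of 24804 genes rose (17.8%) and 4303 fell (17.3%), and 6892 genes were called in both comparisons, which is 95.1% of the calls between high and low libraries and 79.1% of the calls per 0.01. In WT libraries alone 2112 genes rose (9.07%) and 2955 fell (12.7%), 21.8% of genes tested together, and in WWP2 Mut/Mut libraries alone 2355 rose (10.2%) and 2647 fell (11.5%), 21.7% together. The interaction of genotype with coverage was called for 0 of 24804 genes by edgeR (0%, smallest adjusted p = 0.586), with 1204 genes at an unadjusted p below 0.05. The genotype term itself called 1 gene, Wwp2, at -1.54 ± 0.12 (log2, SE, adjusted p = 1.28e-07), with coverage class in the model, and the same 1 gene without it. Between high and low libraries its counts differed by 0.32 ± 0.12 on the log2 scale (edgeR adjusted p = 0.0412). The slope of Wwp2 per 0.01 of coverage was 0.04 in WT and 0.42 in WWP2 Mut/Mut libraries (edgeR interaction, unadjusted p = 0.000981, adjusted p = 0.723), with WWP2 Mut/Mut 52-1 at 3.00 TPM and the other WWP2 Mut/Mut libraries at 1.19 to 1.90 TPM.

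The genes with the smallest p values fell in the high libraries. Ppara, the nuclear receptor that drives genes of fatty acid oxidation, had 0.43 to 1.84 TPM in high libraries (median 0.88) and 2.98 to 9.30 TPM in low libraries (median 6.72), a log2 difference of -2.54 ± 0.20 (edgeR adjusted p = 5.94e-08). Gpam, an enzyme of triglyceride synthesis in mitochondria, had 1.42 to 5.01 TPM (median 3.64) against 13.6 to 34.3 TPM (median 22.9), a log2 difference of -2.56 ± 0.21 (edgeR adjusted p = 7.89e-08). Pdpr, the regulatory subunit of pyruvate dehydrogenase phosphatase, had 0.62 to 1.70 TPM (median 0.82) against 4.90 to 18.5 TPM (median 10.6), a log2 difference of -2.83 ± 0.22 (edgeR adjusted p = 5.81e-08). For each of these metabolic genes, every high library lay below every low library, and WT 45-3, between them in coverage, had 1.35 TPM of Ppara, 6.13 TPM of Gpam and 2.19 TPM of Pdpr.

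Myocd, the transcriptional coactivator myocardin of heart and smooth muscle, lies on the minus strand at chr11:65176561-65269989 (GRCm38). Its level was 1.61 to 3.45 TPM in high libraries (median 2.45) and 5.51 to 12.2 TPM in low libraries (median 7.31), and WT 45-3 had 3.68 TPM. Its log2 difference of -1.25 ± 0.10 (edgeR adjusted p = 5.81e-08) was smaller than that of Pdpr, at a like p. Also among the lower genes with the smallest p were Adcy9, an adenylyl cyclase (-2.10), Pm20d2 (-2.96), Alg10b, a glucosyltransferase of N-glycan synthesis (-2.18), Strn3, a scaffold of a phosphatase complex (-1.30), 8030462N17Rik (-1.97), Dvl3, a Wnt signal transducer (-1.83), and Strip2 (-0.94). Within each genotype the slopes had the same direction, for example -1.66 per 0.01 of coverage in WT and -1.72 in WWP2 Mut/Mut libraries for Gpam, and -0.69 and -0.84 for Myocd.

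The genes that rose with the smallest p values included more that are short, non-coding or overlapped by another gene. Gm49749, a lincRNA at chr12:82000268-82000919 inside the span of Pcnx and on the same strand, had 5.93 to 8.78 TPM in high libraries (median 7.75) and 1.88 to 3.89 TPM in low libraries (median 3.08). No library overlapped, WT 45-3 lay among the high libraries at 6.12 TPM, and the log2 difference was 1.58 ± 0.17 (edgeR adjusted p = 1.11e-06). Ggnbp1, at chr17:27017987-27037624, had 48.0 to 73.1 TPM (median 53.6) against 25.1 to 40.2 TPM (median 38.0), a log2 difference of 1.15 ± 0.13 (edgeR adjusted p = 2.48e-06), and it overlaps Bak1 on the opposite strand. The library kit marks strand, but the strand setting of the counting is not given in the sources used here, so reads of such neighbours may be shared between them.

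Snhg20, a host gene of small nucleolar RNA, rose from 4.12 to 6.79 TPM in low libraries (median 5.18) to 7.48 to 15.2 TPM in high libraries (median 10.98), a log2 difference of 1.25 ± 0.15 (edgeR adjusted p = 4.25e-06). Irf3, a transcription factor of the interferon response that overlaps Bcl2l12 on the opposite strand, had 18.1 to 40.3 TPM in high and 13.0 to 20.6 TPM in low libraries (log2 0.77 ± 0.09, edgeR adjusted p = 3.39e-06), so these groups overlapped in TPM. The size was greatest for 5430431A17Rik, with 6.53 to 53.01 TPM (median 15) against 2.81 to 5.94 TPM (median 4.70) and a log2 difference of 2.33 ± 0.30 (edgeR adjusted p = 7.08e-06). The highest of its high values was that of WT 45-1. The remaining 7 were Gm21992 (1.16), which overlaps Rbm14 and Rbm4, Dpysl2, a cytoskeletal protein of neurites (1.01), Gimap1, a GTPase of lymphocytes (0.85), Gm42715 (1.62), which overlaps Srcap, Fam173a (0.92), Npdc1 (0.64) and ENSMUSG00000108658, which has no symbol here (1.40).

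**Figure D2:**
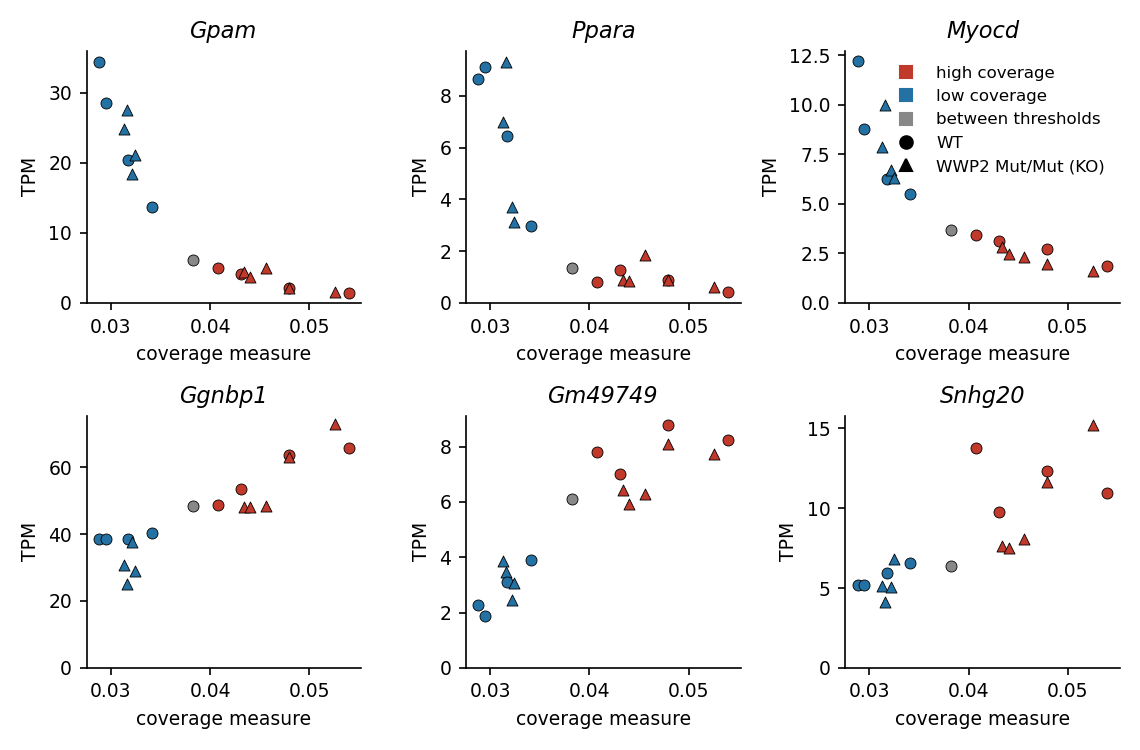
TPM (vertical axes, linear, from 0) of 6 named genes against gene body coverage (horizontal axes), 1 point per library, coloured by high, low and between and shaped by genotype. Gpam, Ppara and Myocd lie lower in every high library than in every low one, with 1.42 to 5.01 TPM against 13.6 to 34.3 TPM for Gpam, whereas Ggnbp1, Gm49749 and Snhg20 lie higher in every high library.

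More than 2-fold differences were rare and differed in kind by direction. Among genes of at least 1 TPM, 162 were called and more than 2-fold higher in high libraries (1.43%) and 161 were called and more than 2-fold lower (1.42%). The 162 higher genes held 85 protein-coding genes, 18 lincRNAs, 32 pseudogenes and 10 small nuclear RNA (snRNA) genes, and had a median effective length of 986 bases. The 161 lower genes held 135 protein-coding genes, 2 lincRNAs, 18 pseudogenes and no snRNA gene, and had a median effective length of 3156 bases. All high libraries lay below all low libraries for 118 of the 161 lower genes, and above them for 28 of the 162 higher genes. Over all genes of at least 1 TPM the shares were 7.61% below and 2.02% above. The 161 and 162 genes were picked by size and adjusted p in the same libraries, so their non-overlap is not independent of that choice.

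Of 5 properties examined, effective length spread the genes most. In 5 classes of effective length with 2248 genes each, the median log2 difference fell from 0.36 in the shortest class (median length 692 bases) through 0.10, -0.03 and -0.15 to -0.31 in the longest (median length 4842 bases). In the shortest class 54.6% of genes were higher and 3.43% lower, and in the longest class 4.18% were higher and 55.4% lower. The middle class had 16.4% higher and 24.6% lower.

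The length of the 3' untranslated region gave an order of nearly the same size, from 0.26 in the class with the shortest (median 165 bases) to -0.30 in the class with the longest (median 3066 bases). GC content ran the other way, with medians of -0.23, -0.11, -0.02, 0.11 and 0.21 from the class of lowest GC (median 42.1%) to that of highest GC (median 58.3%). Effective length and GC content each kept an order inside the other. Among the shortest genes the median rose from 0.23 at lowest to 0.42 at highest GC, and among the longest it rose from -0.40 to -0.12. By number of exons the medians ran from 0.12 to -0.17, and by mean TPM they lay between -0.07 and 0.12 with no steady order. These are descriptions over genes, which are not independent of each other.

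**Figure D3:**
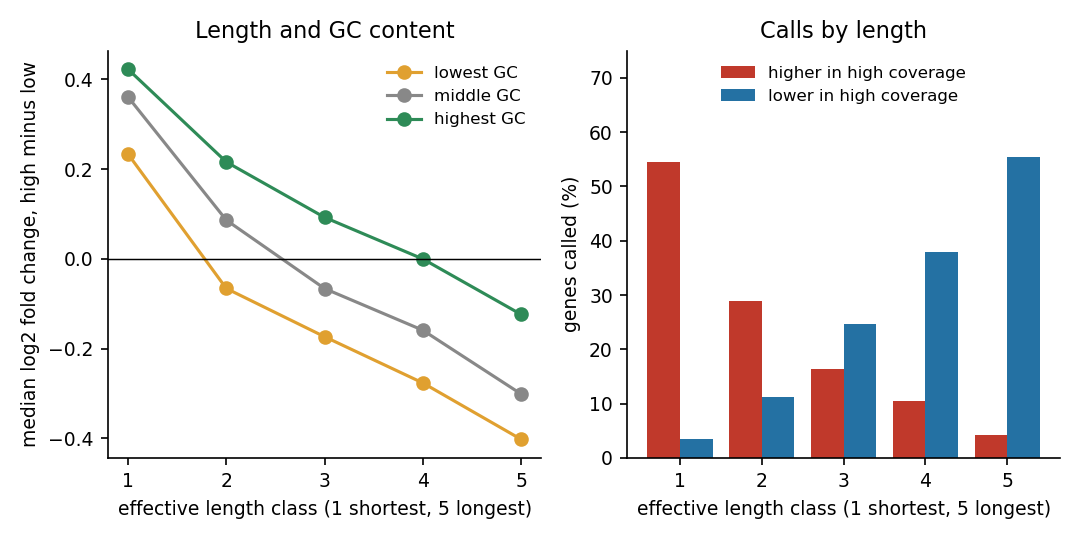
Left, median log2 difference of counts, high minus low (vertical axis), in 5 classes of effective length (horizontal axis, 1 shortest), with a line for the lowest, middle and highest GC content in each class, and right, percent of genes called higher (red bars) and lower (blue bars) in high libraries in the same 5 classes. Every line falls with length and the order of the lines by GC is kept in each class, from 0.23 to -0.40 at lowest and from 0.42 to -0.12 at highest GC, while the bars cross from 54.6% higher in the shortest to 55.4% lower in the longest class.

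By biotype, the calls are to be read against the 14.9% of all genes tested that were higher and the 14.5% that were lower. Of 26 snRNA genes tested, 10 were higher (38.5%) and none lower, with a median of 1.91, and of 38 snoRNA genes 1 was higher and none lower (median 0.32). LincRNAs had 149 higher (10.6%) and 42 lower of 1406 (median 0.33), antisense genes 92 (8.06%) and 31 of 1141 (median 0.30), and transcripts of the class TEC, which await experimental support, 135 (10.2%) and 15 of 1329 (median 0.72). Processed pseudogenes, which are copies of mRNAs without introns, had 196 higher (9.38%) and 83 lower of 2090 (median 0.29). Protein-coding genes had 2890 higher (16.8%) and 3338 lower of 17180 (median 0.02), and the median over all genes tested was 0.08. snRNA genes and pseudogenes have near-identical copies, between which the authors' counting may split reads, so single members of these classes are uncertain.

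One set of copies held much of each library. Of the 10 most abundant genes, 4 in every library were unprocessed pseudogenes of a single stretch of chromosome 1 whose sequence is that of mitochondrial RNA. These and their neighbours, 7 genes in all, were sought after their values were seen, as genes with at least 95% of 25-base words found in mitochondrial RNA, and they lie between 24611535 and 24616197 on chromosome 1. No mitochondrial gene itself was in the tables used here. The copies made up 22.9 to 27.8% of the nominal TPM total in low and 28.2 to 36.1% in high libraries, without overlap (33.1 ± 2.5% against 26.4 ± 1.70%, exact permutation test, p = 8.2e-05, adjusted p = 0.000987). Their share followed coverage over 18 libraries (r = 0.92, rho = 0.92, adjusted permutation p = 4e-05 for each), and within the high (r = 0.69, exact permutation p = 0.0402) and the low libraries (r = 0.81, exact permutation p = 0.0115).

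The copies did not move together. Gm29216 was the most abundant, at 105220 ± 15647 TPM in high and 58789 ± 10576 TPM in low libraries (log2 1.13 ± 0.17 SE, edgeR adjusted p = 4.67e-05). Gm28438, Gm28437, Gm28661 and Gm10925 were higher by 0.57, 0.55, 0.48 and 0.37. Gm10222 and Gm28439, at the other end of the stretch, were lower by log2 -1.42 and -1.56, with 3868 ± 2344 TPM in high against 12151 ± 2876 TPM in low libraries for Gm10222. Added to the shortfall of TPM, the copies came to 53.7 ± 1.61% in high and 53.2 ± 3.90% in low libraries, a sum for which the exact permutation test gave p = 0.748. Without the copies, the 10 most abundant genes still held 14.96 ± 1.02% of counts in high and 13.5 ± 0.349% in low libraries (exact permutation test, p = 0.00214, adjusted p = 0.00513).

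**Figure D4:**
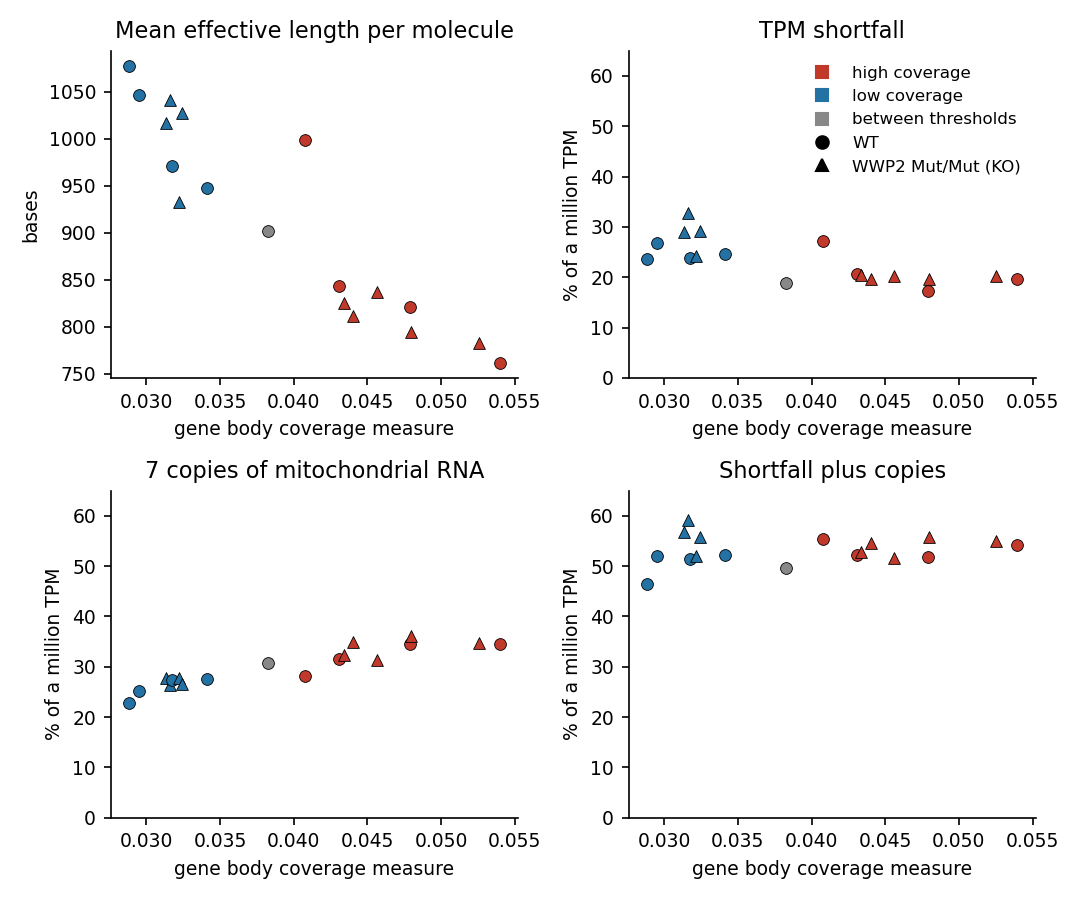
Mean effective length per molecule (bases), TPM shortfall, TPM of the 7 mitochondrial copies, and the sum of shortfall and copies (each in percent of the nominal TPM total, vertical axes) against gene body coverage (horizontal axes), 1 point per library, coloured by high, low and between and shaped by genotype. Effective length falls and the copies rise along the whole range, WT 45-1 lies at 998 bases above the other high libraries, and the sum of shortfall and copies overlaps between the groups at 53.7 ± 1.61% and 53.2 ± 3.90%.

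Cytosolic ribosomal protein genes, which have short mRNAs, were almost wholly higher in high libraries. Of 79 genes, 76 were higher (96.2%, against 22.8% of genes of at least 1 TPM) and none lower, with a median log2 difference of 0.59. Their summed level was 30324 to 46073 TPM in high libraries (median 41650) and 26894 to 39069 TPM in low libraries (median 34989), and 8 of 9 high libraries exceeded the highest low library. Rpl28, a protein of the large subunit, had 294 to 502 TPM in high (median 436) and 215 to 307 TPM in low libraries (median 276), with a log2 difference of 0.73 ± 0.11 (edgeR adjusted p = 3.58e-05). Its lowest high value was that of WT 45-1. Rpl38 rose by 0.87 ± 0.14, Rpl23 by 0.74 ± 0.11 and Rpl30 by 0.72 ± 0.11. On the log2(TPM + 1) scale the family kept its direction, with 47 higher, none lower and a median of 0.32. Ribosomal protein genes have many processed copies. Of 410 named pseudogenes, which are not only ribosomal ones, 80 were higher (19.5%) and 19 lower (4.63%), with a median of 0.50. These shares compare with 14.9% and 14.5% of all genes tested, since only 109 of the 410 had at least 1 TPM.

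Nuclear genes for subunits of oxidative phosphorylation (OXPHOS), the respiratory chain and ATP synthase of mitochondria, had 65 of 83 higher (78.3%, against 22.8% of genes of at least 1 TPM) and 3 lower, with a median of 0.48. With limma on the log2(TPM + 1) scale 35 were higher and 10 lower (median 0.21). Their summed level was 66538 to 95757 TPM in high (median 90301) against 60543 to 81556 TPM in low libraries (median 76124). Ndufa5, a subunit of complex I, had 729 to 1440 TPM (median 1144) against 700 to 865 TPM (median 736), a log2 difference of 0.85 ± 0.14 (edgeR adjusted p = 7.44e-05). WT 45-1, at 729 TPM, lay below 6 of the 8 low libraries, and the other high libraries started at 1079 TPM, above all low ones. Ndufa13 and Ndufa1, of the same complex, rose by 0.75 and 0.74. For mitochondrial ribosomal proteins 35 of 78 were higher (44.9%) and 3 lower by counts (median 0.25), for example Mrps18b at 0.50 ± 0.08, whereas on the log2(TPM + 1) scale the median was -0.04, with 5 higher and 21 lower, which was still 0.17 above that of all genes of at least 1 TPM. Proteasome subunits had 11 of 39 higher and 3 lower (median 0.15), with Psmd4 at 0.46 and the long Psmd1 at -0.63.

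Among the families of short mRNAs, the calls also moved with the shortfall of TPM. With that shortfall as a covariate, 849 genes were higher and 798 lower. By edgeR, 0 of the 79 ribosomal protein genes and 0 of the 83 OXPHOS genes were called, with medians of 0.09 and 0.04. At an unadjusted p below 0.05, 4 ribosomal protein genes were higher and 0 lower, and 1 OXPHOS gene was higher and 3 lower. No other tool was run with this covariate. In WT libraries alone 2 ribosomal protein genes and 0 OXPHOS genes were called higher between high and low libraries (27 and 22 at an unadjusted p below 0.05), and in WWP2 Mut/Mut libraries alone 75 and 61 were. The ribosomal protein medians had the same direction in both, 0.39 in WT and 0.74 in WWP2 Mut/Mut libraries, and no gene had an interaction past the threshold. WT 45-1, the high library with the greatest shortfall, at 27.1%, is among the 4 high WT libraries. Coverage class and shortfall moved together across these libraries, so their parts cannot be told apart by this fit.

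Host genes of small nucleolar RNAs, whose spliced transcripts are short and non-coding, were mostly higher. Of 15, 13 were higher (86.7%, against 22.8% of genes of at least 1 TPM) and none lower, with a median of 0.82, and their summed level of 130.8 to 177.8 TPM in high libraries lay wholly above the 87.3 to 118.0 TPM in low libraries. Gas5 had 47.9 to 67.4 TPM (median 54.1) against 28.1 to 42.9 TPM (median 41.1), a log2 difference of 0.82 ± 0.10 (edgeR adjusted p = 7.49e-06). Snhg6 and Snhg8 rose by 0.76 and 0.77. On the log2(TPM + 1) scale 10 of 15 were higher and none lower (median 0.42), and 8 were higher with the TPM shortfall as a covariate.

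Long non-coding RNAs of the nucleus were higher in part. Of 19 nuclear long non-coding RNAs, 9 were higher (47.4%, against 14.9% of all genes tested and 22.8% of those of at least 1 TPM) and 1 lower, with a median of 0.58. With the TPM shortfall as a covariate 4 were higher, as were 4 in WT and 4 in WWP2 Mut/Mut libraries alone. Neat1, the scaffold of paraspeckles, had 56.8 to 360 TPM in high libraries (median 216) and 62.8 to 119 TPM in low libraries (median 92.3), so that the lowest high library lay below all low ones while most lay above them. Its log2 difference was 1.36 ± 0.24 (edgeR adjusted p = 0.000184). Malat1, an RNA of nuclear speckles, had 23.8 to 92.3 TPM (median 54.9) against 13.3 to 39.5 TPM (median 24.3), a log2 difference of 1.15 ± 0.27 (edgeR adjusted p = 0.00221), and Meg3 rose by 1.17 ± 0.25. On the log2(TPM + 1) scale 3 of the list were higher and 2 lower, with a median of 0.03, which was 0.24 above that of all genes of at least 1 TPM.

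Genes of SR proteins and splicing regulators, many of which keep introns in nuclear transcripts, had 27 of 43 higher (62.8%, against 22.8% of genes of at least 1 TPM) and 1 lower, with a median of 0.34. Ccnl2, a cyclin of nuclear speckles, had 10.4 to 38.8 TPM in high libraries (median 24.3) and 9.05 to 14.1 TPM in low libraries (median 11.8), a log2 difference of 1.23 ± 0.18 (edgeR adjusted p = 2.78e-05). Clk1, a kinase of SR proteins, rose by 1.10 ± 0.17, Luc7l by 1.13 ± 0.16 and Arglu1 by 0.65 ± 0.09. High libraries were spread more widely than low ones for Ccnl2, Clk1 and Neat1. The number of SR genes called higher fell to 9 on the log2(TPM + 1) scale, to 17 in WT and 8 in WWP2 Mut/Mut libraries alone, and to 16 with the TPM shortfall as a covariate. Over all genes, the number called higher fell too, from 3666 to 1297, 864, 1830 and 849 in the same order. The SR medians were 0.11, 0.43, 0.21 and 0.44, against 0.34 in the main comparison. At an unadjusted p below 0.05, 11, 31, 16 and 35 SR genes were higher.

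Of 50 very long mRNAs 22 were lower (44%, against 26.3% of genes of at least 1 TPM), 2 were higher and 26 were not called, with a median of -0.28. With the TPM shortfall as a covariate 5 were lower (median -0.03), and 12 were in WT and 15 in WWP2 Mut/Mut libraries alone. Dmd, which encodes dystrophin of the muscle membrane, had 3.64 to 7.17 TPM in high (median 5.95) and 7.43 to 14.1 TPM in low libraries (median 10.3), without overlap, and a log2 difference of -0.94 ± 0.12 (edgeR adjusted p = 1e-05). Ank3, an ankyrin that anchors membrane proteins to the cytoskeleton, differed by -0.92 ± 0.10 (edgeR adjusted p = 1.63e-06), and its highest high value, 6.26 TPM in WT 45-1, was the only one above the lowest low value, 4.59 TPM. Vps13c, a lipid transfer protein, differed by -1.32 ± 0.13 in counts, while its TPM of 2.25 to 3.76 in high overlapped the 2.39 to 4.30 in low libraries. On the log2(TPM + 1) scale the median of the list, -0.19, was 0.02 above that of all genes of at least 1 TPM.

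Genes of fatty acid oxidation, the main fuel pathway of the heart, had 13 of 30 lower (43.3%, against 26.3% of genes of at least 1 TPM) and 2 higher, with a median of -0.26. With the TPM shortfall as a covariate 3 were lower, and 4 were in WT and 8 in WWP2 Mut/Mut libraries alone. Their summed level was 8489 to 11793 TPM in high (median 9826) against 10874 to 13846 TPM in low libraries (median 12237), and 7 of 9 high libraries lay below the lowest low library. Acsl1, which activates long-chain fatty acids, had 53.04 to 121 TPM (median 74.4) against 132 to 237 TPM (median 176), a log2 difference of -0.86 ± 0.11 (edgeR adjusted p = 7.91e-06). Cd36, the fatty acid transporter, differed by -0.61 ± 0.12 (edgeR adjusted p = 0.000547). Etfb, a short mRNA for the electron transfer flavoprotein, rose by 0.58 ± 0.12 (edgeR adjusted p = 0.000742). On the log2(TPM + 1) scale 20 of the 30 were lower and none higher, with a median of -0.54, which was 0.32 below that of all genes of at least 1 TPM.

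Heart muscle genes differed in both directions. In the list of sarcomere and Z-disc genes 6 of 36 were higher (16.7%) and 10 lower (27.8%), against 22.8% and 26.3% of genes of at least 1 TPM, with a median of 0.03. Tnni3, cardiac troponin I with an effective length of 708 bases, had 5208 to 8432 TPM in high (median 7187) and 4441 to 5716 TPM in low libraries (median 5220), a log2 difference of 0.59 ± 0.12 (edgeR adjusted p = 0.000979). Pdlim5, a Z-disc protein, had 106 to 234 TPM (median 160) against 320 to 546 TPM (median 404), a log2 difference of -0.88 ± 0.12 (edgeR adjusted p = 1.36e-05), and Nebl, nebulette of the Z-disc, differed by -0.66 ± 0.09. Of 31 short cardiomyocyte mRNAs 11 were higher and 2 lower (median 0.21). With limma on the log2(TPM + 1) scale 3 were higher and 6 lower, and their median was -0.09, which was 0.13 above that of all genes of at least 1 TPM. Of the same 31 mRNAs, 0 were higher and 2 lower with the TPM shortfall as a covariate (median -0.11). In WT libraries alone 0 were called (3 higher and 4 lower at an unadjusted p below 0.05). In WWP2 Mut/Mut libraries alone 9 were higher and 4 lower.

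Of 12 cardiomyocyte markers 4 were higher (33.3%) and 3 lower (25%), against 22.8% and 26.3% of genes of at least 1 TPM, with a median of 0.07. With limma on the log2(TPM + 1) scale 2 were higher and 5 lower (median -0.14), and none was called with the TPM shortfall as a covariate (1 higher and 4 lower at an unadjusted p below 0.05). The 3 lower ones were Ryr2, Atp2a2 and Pln. Ryr2, the calcium release channel, had 21.6 to 32.96 TPM in high (median 24.3) and 39.4 to 83.6 TPM in low libraries (median 72.1), without overlap, and a log2 difference of -0.76 ± 0.12 (edgeR adjusted p = 5.18e-05). Atp2a2, the calcium pump SERCA2, differed by -0.58 ± 0.10 (edgeR adjusted p = 0.000219), with WT 45-1 at 1841 TPM above the other high libraries. Pln, phospholamban, an inhibitor of that pump, differed by -0.45 ± 0.10 (edgeR adjusted p = 0.00208). The 4 higher ones, all genes of sarcomere proteins, were Tnni3, Myl2, Myl3 and Tnnt2, at 0.59, 0.53, 0.39 and 0.29. The summed level of all 12 markers overlapped, at 50009 to 60888 TPM in high and 48115 to 63060 TPM in low libraries.

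TGF-beta and SMAD pathway genes, which act in fibrosis, had 7 of 29 higher (24.1%) and 12 lower (41.4%), against 22.8% and 26.3% of genes of at least 1 TPM, with a median of -0.01. Lower were Smurf2, a ubiquitin ligase for SMAD proteins (-0.73 ± 0.10, edgeR adjusted p = 1.4e-05), and Smad4, the shared SMAD (-0.55 ± 0.09, edgeR adjusted p = 7.43e-05), and higher were Id1, a short target of BMP signaling (0.66 ± 0.11, edgeR adjusted p = 7.65e-05), and Acvrl1, a receptor of endothelial cells (0.44 ± 0.07, edgeR adjusted p = 0.00012). Of 30 fibrotic matrix genes none was higher (1 at an unadjusted p below 0.05, and none by DESeq2) and 2 were lower, Loxl2, which crosslinks collagen (-0.60 ± 0.13), and Col8a1 (-0.56 ± 0.20), with a median of -0.16. Of 43 collagen genes tested, 4 were higher (9.30%) and 2 lower (4.65%), against 14.9% and 14.5% of all genes tested.

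Stress and signaling lists were mixed. Of 20 heat shock protein genes none was higher and 4 were lower (20%, against 26.3% of genes of at least 1 TPM, with a median of -0.13), for example Hspa4l at -0.87 ± 0.12 (edgeR adjusted p = 1.79e-05), and 8 of 9 high libraries had a summed level below the lowest low library. Interferon-stimulated genes had 10 of 26 higher (38.5%, against 22.8% of genes of at least 1 TPM) and none lower (median 0.25), with Ifi27 at 0.56 ± 0.08 (edgeR adjusted p = 1.77e-05). With limma on the log2(TPM + 1) scale 2 of them were higher and 4 lower, and their median was -0.04, which was 0.17 above that of all genes of at least 1 TPM. Of the same 26 genes, 1 was higher and none lower with the TPM shortfall as a covariate (median -0.05). In WT libraries alone 2 were higher and in WWP2 Mut/Mut libraries alone 7 were. Of 28 immediate early genes 4 were higher and none lower, a share of 14.3% against 14.9% of all genes tested. The number was 10 without WWP2 Mut/Mut 8-2 and 3 with the TPM shortfall as a covariate. In WT libraries alone 10 of the 28 were higher and none lower (median 0.48), while 864 of 23007 genes tested were higher in that fit. Of 360 zinc finger genes of the KRAB type 46 were higher (12.8%) and 90 lower (25%), with a median of -0.06. The lower share compares with 14.5% of all genes tested and 26.3% of genes of at least 1 TPM, which 197 of the 360 were. Of 51 clustered protocadherins 3 were higher (5.88%) and 16 lower (31.4%), against 14.9% and 14.5% of all genes tested (median -0.42). Only 2 of the 51 had at least 1 TPM. Pcdhgc4 was higher by 1.71 ± 0.26. It overlaps other genes of the cluster on the same strand, so reads may be shared between them.

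**Figure D5:**
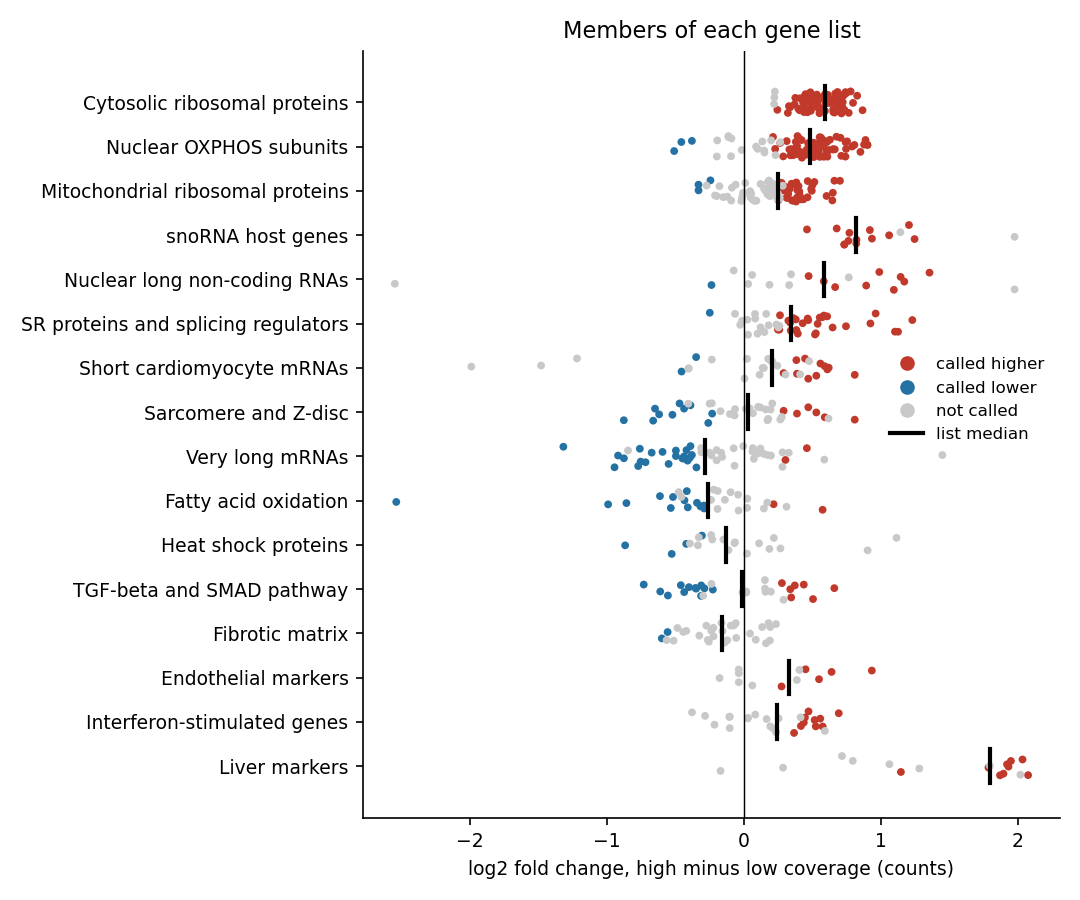
Log2 difference of counts, high minus low (horizontal axis), of the members of 16 gene lists (vertical axis), 1 point per gene in red where called higher, blue where called lower and grey where not called, with a bar at each list's median. Ribosomal protein, OXPHOS and small nucleolar RNA host genes lie mostly to the right of 0, with medians of 0.59, 0.48 and 0.82, and very long mRNAs and fatty acid oxidation genes to the left, at -0.28 and -0.26.

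Markers of the cell types that a left ventricle can hold were looked at beside these results, since in bulk tissue fewer cells of a type and less RNA per cell cannot be told apart. Of 12 endothelial markers 5 were higher (41.7%, against 22.8% of genes of at least 1 TPM) and none lower (median 0.33), and with limma on the log2(TPM + 1) scale 3 were higher and 2 lower (median 0.04). One setting with the TPM shortfall as a covariate gave 1 higher (median 0.32). In WT libraries alone 2 were higher and in WWP2 Mut/Mut libraries alone 5 were (medians 0.20 and 0.32). The endothelial markers had a summed level of 881 to 1286 TPM in high (median 1095) and 769 to 984 TPM in low libraries (median 913). Egfl7, a protein that endothelial cells secrete, had 109 to 216 TPM (median 152) against 65.3 to 102 TPM (median 95.4), a log2 difference of 0.94 ± 0.12 (edgeR adjusted p = 1.06e-05), and Fabp4, Emcn and Esam rose by 0.64, 0.55 and 0.45. Fabp4, at a mean of 688 TPM in high and 546 TPM in low libraries, made up most of this sum and is in the adipocyte list too, whose sum was 578 to 864 TPM in high (median 726) and 471 to 622 TPM in low libraries (median 571). The mRNAs of Egfl7, Fabp4, Emcn and Esam are short, with effective lengths of 734 to 1637 bases. Fibroblast markers had 1 of 12 higher, smooth muscle and pericyte markers 2 of 11 higher and 1 lower, immune markers 1 of 16 higher and 2 lower, and erythroid markers 1 of 10 higher, shares to be read against 14.9% higher and 14.5% lower of all genes tested and 22.8% and 26.3% of genes of at least 1 TPM. The part of cell composition in the results above was not tested.

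Liver transcripts were present at low levels, and the number called moved with single libraries. Of 17 liver markers 9 were higher (52.9%, against 22.8% of genes of at least 1 TPM) and none lower (median 1.80), with summed levels of 56.0 to 586 TPM in high (median 115) and 30.8 to 251 TPM in low libraries (median 36.6). Apoa2, an apolipoprotein made by liver, had 5.91 to 83.97 TPM (median 16.4) against 1.23 to 29.5 TPM (median 2.16), a log2 difference of 1.87 ± 0.52 (edgeR adjusted p = 0.00885). The highest summed level of the high libraries was that of WT 45-1, and of the low libraries that of WT 25-3. The count of 9 fell to 3 without WT 45-1, rose to 15 without WT 25-3 and was 4 to 11 without 1 of the other libraries. It was 3 with DESeq2 and 2 with coverage as a number. In WT and in WWP2 Mut/Mut libraries alone the count was 0 and 1 (8 and 10 at an unadjusted p below 0.05). It was 13 with the TPM shortfall as a covariate, with a median of 3.77. With the liver level as a covariate 3338 genes were higher and 3419 lower.

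Of 5 sex-linked genes, 3 of the Y chromosome were lower, and Eif2s3y, also of the Y chromosome (-0.09, edgeR adjusted p = 0.499), and Xist were not called. Xist stayed at or near 0 TPM in all 18 libraries, as in male tissue. Uty had 0.85 to 1.49 TPM in high (median 1.10) and 2.49 to 4.16 TPM in low libraries (median 2.83), without overlap, and a log2 difference of -1.12 ± 0.11 (edgeR adjusted p = 3.29e-07). Ddx3y differed by -1.04 ± 0.11 (edgeR adjusted p = 1.62e-06) and Kdm5d by -0.28 ± 0.10 (edgeR adjusted p = 0.0287). The effective lengths of the 3 lower genes are 3726 to 4394 bases.

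The estimated transcript lengths differed too. For the 6324 genes of at least 5 TPM with an effective length in all 17 libraries, 530 were shorter in every high than in every low library and 341 were longer, and 86.9% differed by less than 1.2-fold. Hk2, hexokinase of glycolysis, had a mean effective length of 1332 bases in high and 3850 bases in low libraries. Its level of 69.1 to 115 TPM in high libraries lay above the 37.7 to 55.5 TPM in low libraries, whereas its counts were lower (log2 -0.28 ± 0.09, edgeR adjusted p = 0.0266). Of the 5568 genes of at least 1 TPM called from counts, 359 called higher had a lower mean TPM in high libraries and 60 called lower had a higher one, so for these genes the direction depends on the unit.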

How the data were processed

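RNA of 18 left ventricles was sequenced from a poly(A)-selecting, strand-marking kit. The authors aligned reads with STAR 2.5.2b to m38, quantified Ensembl 89 genes with RSEM 1.2.31, removed rRNA and mitochondrial genes, and deposited expected counts and TPM. The deposited sample sheet gives the coverage fraction, RNA concentration (other unit, ng/ul), absorbance ratios and lane. The concentration of WT 43-3 was recorded as 1.68 and the A260/280 ratio of WT 45-3 as 214, which was left out of that measure.

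Rounded expected counts of genes whose counts summed to more than 1 were tested with edgeR 4.0.16 (TMM, glmQLFTest, R 4.3.3), with genotype as covariate, high against low. Calls were made at a Benjamini-Hochberg adjusted p below 0.05. limma 3.58.1 on log2(TPM + 1) and DESeq2 1.42.0 were alternatives. On simulated counts for high against low over 24681 genes, 97% of 100 genes changed by log2 1 and 62% of 100 changed by 0.5 were recovered. The 12 called genes of at least 1 TPM with the smallest p in each direction and up to 4 called members of each list, by p, were named, except 1 gene that is not reported here. Effective length is count divided by TPM, set to bases per library. Other properties came from GENCODE M21, matched for 51242 of 51435 genes (99.6%). Values per library were compared by two-sided exact permutation tests. The groups, gene lists and named properties were chosen with earlier results of these data known. Genes beyond the naming rule (the mitochondrial copies, Hk2, Myl2, Myl3, Tnnt2, Wwp2 apart) were chosen after their values were seen.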

Additional observations from a re-analysis of the deposited data

Results flagged for a closer look

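Of 120 sets of values examined, 1 for each measure and group of libraries, 14 (11.7%) had a library whose gap to its neighbour exceeded Dixon's critical value, where chance gives about 1 in 20.

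WT 45-1 was that library in 10 of them, always among the high libraries. It had a TPM shortfall of 27.1% and a mean effective length of 998 bases, both nearer to the low libraries. Rpl28 at 294 TPM, Ank3 at 6.26 TPM, Atp2a2 at 1841 TPM and Ddx3y at 7.77 TPM also lay on the side of the low libraries, whereas 5430431A17Rik at 53.01 TPM and Pcdhgc4 at 22.8 TPM lay on the far side. Its liver markers summed to 586 TPM, with Apoa2 at 83.97 TPM. WT 45-1 was also the high library with the lowest coverage, and without it 3971 genes were higher and 4024 lower.

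Among the low libraries, WT 25-3 stood apart with liver markers at 251 TPM, Apoa2 at 29.5 TPM and Gas5 at 28.1 TPM, and WWP2 Mut/Mut 33-1 with Egfl7 at 65.3 TPM.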

How the results depend on the processing

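The comparison of high with low libraries kept its direction for all 24 genes that the naming rule gave by p, in all 912 alternative values, which also stayed past the threshold. Leaving out 1 library gave 3115 to 3971 genes higher and 3231 to 4024 lower. No paired analysis was possible because each mouse has its own number and none is shared between genotypes. The numbers of genes higher and lower, and of called genes in the lists named below, were within 1.5 times the main count with DESeq2, other size factors than those below, other count filters, no genotype term, lane, RNA concentration and a split at the median.

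Counts moved further in the following settings. With library size only 2179 genes were higher, with 22 mitochondrial ribosomal protein and 13 SR genes. With limma on log2(TPM + 1), 1297 genes were higher and 6136 lower, with 47 ribosomal protein, 35 OXPHOS, 5 mitochondrial ribosomal protein, 3 nuclear RNA and 9 SR genes higher and 20 fatty acid oxidation genes lower. Per 0.01 of coverage that test gave 1591 higher and 7431 lower, and with a pseudocount of 0.1 it gave 1630 and 7443.

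In WT libraries alone 864 genes were higher and 1328 lower, with 2 ribosomal protein, 0 OXPHOS, 0 mitochondrial ribosomal protein, 4 nuclear RNA and 17 SR genes higher and 12 very long and 4 fatty acid oxidation genes lower. In WWP2 Mut/Mut libraries alone 1830 were higher and 2311 lower, with 4 nuclear RNA and 8 SR genes higher and 8 fatty acid oxidation genes lower. These fits hold fewer libraries. With lane and RNA concentration together 17 SR genes were higher.

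Some alternatives were chosen after seeing the data. With the TPM shortfall as a covariate 849 genes were higher and 798 lower, with 0 ribosomal protein, 0 OXPHOS, 0 mitochondrial ribosomal protein, 8 snoRNA host, 4 nuclear RNA and 16 SR genes higher and 5 very long and 3 fatty acid oxidation genes lower. With the liver level as a covariate 15 SR genes were higher. With TPM rescaled to its nominal total, 861 genes were higher and 7575 lower, with 32 ribosomal protein, 23 OXPHOS, 4 mitochondrial ribosomal protein, 3 nuclear RNA and 6 SR genes higher and 23 fatty acid oxidation genes lower. With the mitochondrial copies left out before rescaling, 1412 were higher and 5972 lower, with 15 mitochondrial ribosomal protein, 3 nuclear RNA and 9 SR genes higher. The cause of these shifts was not tested.

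Among library measures, r with the number of genes with a count was 0.84 in WWP2 Mut/Mut libraries alone, past the threshold there, and r with the TPM shortfall was -0.65 in WT alone. Measures that were not called turned sign in WT alone, in WWP2 Mut/Mut alone or without the 2 libraries farthest from the measure's own median. RNA concentration turned in WT alone (0.34), and the sum of shortfall and copies in WWP2 Mut/Mut alone (-0.35). A260/280 turned in WWP2 Mut/Mut alone (-0.35) and without its 2 farthest libraries (-0.25). A260/230 turned in WT alone (0.14) and without its own 2 farthest (0.10). At these depths, 62% of 100 genes changed by 0.5 on the log2 scale were recovered from simulated counts, so smaller differences may be missed. Far fewer genes were changed in the simulation than the 7244 called in the data. Since the adjustment of p depends on how many genes change, the 62% need not hold for the real comparison.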

Other observations

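Further gene groups were counted in the same comparison, in which 14.9% of all genes tested were higher and 14.5% lower. Among genes of at least 1 TPM these shares were 22.8% and 26.3%. That level was reached by 18 of 19 clock genes, 24 of 25 chaperone and unfolded protein response genes and 19 of 19 glycolysis genes. Circadian clock genes had 1 of 19 higher, Per3 at 1.03 ± 0.36 (log2, SE, edgeR adjusted p = 0.0355), and 3 lower, Clock at -0.76 ± 0.14 (edgeR adjusted p = 0.000324), Rora at -0.55 ± 0.11 and Cry1 at -0.36 ± 0.12. Chaperones of the endoplasmic reticulum and genes of the unfolded protein response had 2 of 25 higher, among them the short Ddit3 at 0.61 ± 0.13, and 4 lower, among them Dnajb9 at -0.65 ± 0.13 and Hyou1 at -0.50 ± 0.12. Glycolysis genes had 2 of 19 higher, Pgam2 at 0.45 ± 0.11 and Gpi1 at 0.18 ± 0.07, and 2 lower, Hk2 and Pfkp, both at -0.28 ± 0.09.

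Small nuclear and nucleolar RNAs had 5 of 31 higher (16.1%, against 14.9% of all genes tested) and none lower by edgeR, with 0 lower at an unadjusted p below 0.05, and 3 higher and 0 lower by DESeq2. Of this list, whose RNAs mostly lack a poly(A) tail, Rn7sk, the scaffold of a transcription elongation inhibitor, had 13.0 to 66.4 TPM in high (median 42.5) and 8.84 to 37.7 TPM in low libraries (median 14.6), a log2 difference of 1.35 ± 0.35 (edgeR adjusted p = 0.00526). Rmrp, the RNA of a ribosomal RNA processing enzyme, differed by 2.14 ± 0.43 (edgeR adjusted p = 0.000719), and Rpph1, the RNA of ribonuclease P, by 1.65 ± 0.47 (edgeR adjusted p = 0.0105). Histone genes of the replication-dependent kind, most of whose mRNAs also lack the tail, had 4 of 62 higher and 4 lower.

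Markers of tissues beside the ventricle wall were counted too. Atrial markers had 1 of 10 higher and 1 lower, adipocyte markers 1 of 10 higher, skeletal muscle markers 2 of 10 higher, mesothelial and epicardial markers 1 of 8 higher, shares of 10 to 20% against 14.9% of all genes tested. None of 12 nerve and glia markers was called by edgeR, with 3 at an unadjusted p below 0.05 and 1 called by DESeq2. None of 10 valve and cartilage markers was called by either tool, and none had an unadjusted p below 0.05.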
